A study of Mus musculus with 18 samples.

Results

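The 200 circRNAs described here were those whose measured m6A level was lowest 3 days after a middle cerebral artery occlusion (MCAO) in mice and higher both in sham mice and 7 days after MCAO. They were taken from 9305 circRNA probes that were marked well above background in both channels on all 9 arrays, out of 14236 circRNA probes on the array. The level of a circRNA was its intensity in the m6A immunoprecipitate (IP) divided by the sum of IP and the supernatant (Sup), on the scale of the deposited table. A circRNA was said to dip when each of its 3 levels in the 3d group lay below all 3 sham levels and all 3 7d levels. This order was found in 3613 of the 9305 probes (38.8%), and the opposite order, with every 3d level above the rest, in 222. The score of a circRNA was the smaller of its log2 differences between sham and 3d and between 7d and 3d, and the 200 highest scores were taken. Since the levels of 3d vs. sham and 7d vs. 3d chose the 200 circRNAs, these differences are given below as a description, and counts of calls in them are read as no evidence.

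All mice were C57BL/6J and 10 weeks old. In the 3d and 7d groups the distal middle cerebral artery was closed permanently with a bipolar electrosurgical knife. Both common carotid arteries were then closed for 7 minutes, and cortex around the infarct was taken 3 or 7 days later. Sham mice had the same operation without the MCAO, and the day of their sampling was not used here. Each group held 3 samples labeled as biological replicates. RNA of each sample was split with an anti-m6A antibody, both fractions were digested with RNase R, Cy5 marked IP and Cy3 marked Sup, and the array of a sample took both. Only the tissue is labeled and no cell type was sorted, so fewer cells of a type and less RNA per cell cannot be told apart.

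CircRNAs are closed loops that back-splicing forms from exons of a host gene, and the lack of free ends makes them resistant to RNase R. N6-methyladenosine, m6A, is a methyl group on adenosine that a methyltransferase complex around METTL3 and METTL14 adds, that FTO and ALKBH5 remove, and that YTH domain proteins bind. In circRNAs m6A is known to affect export, decay and translation, and brain is a tissue rich in circRNAs.

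Of the 200 circRNAs, 9 could be named. The deposited files hold probe names and no host genes, so the lists of most changed circRNAs in the study were used as a key: their 60 entries were each matched to 1 probe on the fold change and P recomputed from the files. The entries fell on 55 probes, of which 31 were among the 9305. The 9 named circRNAs are therefore those that the study listed for large changes, 5 of them stood among the 10 highest scores, and they are no random draw from the 200. All were exonic circRNAs. Their hosts were Ofd1 on chromosome X, Slc9a2 and Mrps9 on chromosome 1, Mtrf1 on chromosome 14, Ptchd4 on chromosome 17, Dopey1 on chromosome 9, and Bmp2k, Cfap69 and Tbc1d19 on chromosome 5. The other 191 are given by their probe names.

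Facts of the whole set of arrays touch every value below. The median level of the 9305 probes was 28.2% ± 3.3 (SD, n = 3) in the 3d group, 36.5% ± 4.60 in sham and 38.4% ± 1.45 in the 7d group. By a two-sided exact permutation test 3d differed from each of the others with P = 0.1, the smallest that 3 against 3 arrays can give, and 7d differed from sham with P = 0.9. With all spike-in probes for scaling the 3d median was above sham by 4.43 percentage points, so the direction of this general shift depends on the scaling. The 3 sham arrays shared a scan date, taken here as a slide, and the 3d and 7d arrays shared another. Slide and group therefore cannot be told apart in comparisons with sham. On their shared slide the 3d arrays all lay in row 1 and the 7d arrays in row 2. Row and group therefore cannot be told apart in 7d vs. 3d. Each channel of the deposited table was scaled on 10 of the 102 spike-in probes. On this scale 51 of the 77 spike-in probes well above background on all arrays dipped as the circRNAs did, with a median log2 level change of -0.50 in 3d vs. sham. Of the 33 mRNA probes so marked 20 dipped. The 14 control circRNA probes went the other way, with 0 that dipped, 8 with every 3d level above the rest, and median log2 level changes of 0.31 in 3d vs. sham and -0.50 in 7d vs. 3d. A general shift of -0.34 in 3d vs. sham and 0.39 in 7d vs. 3d, the medians of all 9305 probes, is thus part of the values of the 200 circRNAs.

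The levels of the 200 circRNAs were lower in the 3d group than in the others by about the same amount on either side. Their median level was 49.4%, 48.1% and 37.8% on the sham arrays, 24.7%, 26.8% and 17.4% on the 3d arrays, and 50.9%, 43.6% and 44.2% on the 7d arrays. The third 3d array was the lowest and the third sham array was the lowest of its group, and no 3d median reached a sham or 7d median. The median log2 level change was -0.94 in 3d vs. sham and 0.98 in 7d vs. 3d. Relative to the median of all 9305 probes these changes were -0.60 and 0.60.

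**Figure D1:**
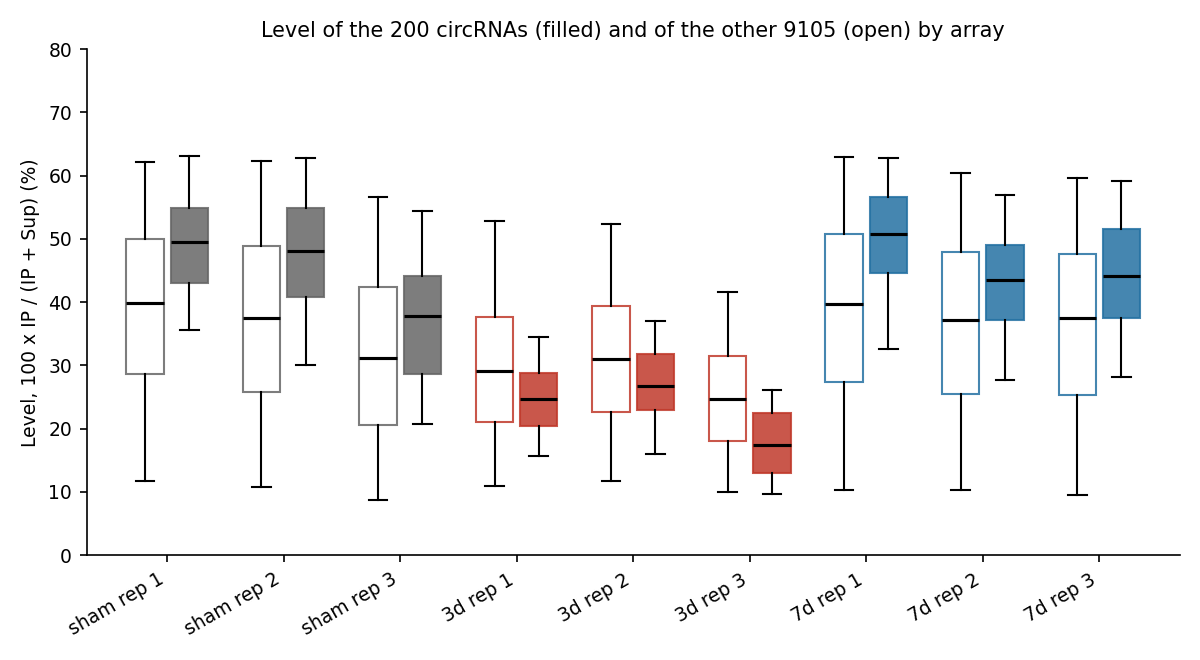
Level, 100 x IP / (IP + Sup), of the 200 circRNAs (filled boxes) and of the other eligible probes (open boxes) on each of the 9 arrays, with the median, the 25th to 75th percentile as box and the 5th to 95th percentile as whiskers. The medians of the 200 lie above those of the other probes on every sham and 7d array and below them on every 3d array, with 17.4% on 3d replicate 3 as the lowest.

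Among themselves the 200 circRNAs were spread widely in level and narrowly in score. Mean levels ranged from 23.5% to 67.0% in sham (median 45.6%), from 11.4% to 34.3% in the 3d group (median 23.8%) and from 20.6% to 66.7% in the 7d group (median 46.0%). Scores ran from 1.28 to 0.83 with a median of 0.91, against a median of 0.49 for the 3413 other circRNAs that dipped. The gap between the highest 3d level and the lowest of the other levels was 0.36 in the median on the log2 scale and 0.79 at the most. In the narrowest case it was 0.00053, so that the order of that circRNA rested on arrays that were all but equal. A call was a fold change above 1.5 with an unadjusted limma P below 0.05. All 200 met it in both comparisons, where 17.4% of the 9305 probes were called lower in 3d vs. sham and 25.7% higher in 7d vs. 3d, but the rule had fixed the direction and the size of these differences, so nothing is read from that count.

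The place where the list ends marks no break in the values. The last circRNA taken, ASCRP4008722, had levels of 29.4%, 35.7% and 26.7% in sham, 16.2%, 14.0% and 16.2% at 3d and 34.4%, 24.9% and 23.9% at 7d, and a score of 0.83. The first left out, ASCRP4006968, had levels of 39.9%, 33.4% and 31.8% in sham, 20.8%, 19.1% and 19.1% at 3d and 42.8%, 31.9% and 40.6% at 7d, and the same score of 0.83 to the second decimal. The next inside, ASCRP4009149 and ASCRP4009646, and the next outside, ASCRP4012665 and ASCRP4001697, had scores from 0.82 to 0.83.

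Among the named circRNAs, a pair had hosts that code for proteins of cilia. The circRNA of Ofd1 (mmu_circRNA_45969, rank 2), whose host codes for a centriole protein needed to build primary cilia, had levels of 48.4%, 38.1% and 25.8% in sham, 20.6%, 17.8% and 9.08% at 3d and 44.8%, 40.0% and 28.2% at 7d. Its lowest sham level, 25.8%, stood above its highest 3d level, 20.6%. The circRNA of Cfap69 (mmu_circRNA_38065, rank 27), a cilia and flagella associated protein, had levels of 32.0%, 37.5% and 31.9% in sham, 12.1%, 16.0% and 12.4% at 3d and 25.9%, 30.1% and 29.0% at 7d. Its replicates lay close together and the 3d levels lay far below the rest. Its log2 level change of -1.33 in 3d vs. sham was the largest of the 200, and at 7d it had come back to -0.25 of sham.

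Another pair had hosts that serve protein synthesis in mitochondria. The circRNA of Mrps9 (mmu_circRNA_19997, rank 4), from the gene of a protein of the small mitochondrial ribosomal subunit, had a mean level of 35.2% ± 11.4 in sham, 15.1% ± 4.19 at 3d and 34.9% ± 3.54 at 7d (SD, n = 3). The circRNA of Mtrf1 (mmu_circRNA_27887, rank 7), from the gene of a mitochondrial release factor that acts when translation ends, had levels of 51.3%, 52.0% and 37.0% in sham, 21.1%, 24.3% and 14.4% at 3d and 53.5%, 39.8% and 40.0% at 7d. Its highest 3d level, 24.3%, lay far below its lowest other level, 37.0%.

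The hosts of 3 others act in membrane traffic. Dopey1 codes for a protein of traffic between endosomes and Golgi, Bmp2k for a kinase related to the clathrin adaptor kinase AAK1, and Tbc1d19 for a protein with the TBC domain of Rab GTPase activating proteins. The circRNA of Dopey1 (mmu_circRNA_44763, rank 12) had a mean level of 51.0% ± 12.2 in sham, 21.2% ± 7.45 at 3d and 44.8% ± 7.01 at 7d. The circRNA of Bmp2k (mmu_circRNA_39011, rank 19) had levels of 51.1%, 48.5% and 29.3% in sham, 22.0%, 23.9% and 8.93% at 3d and 42.5%, 36.4% and 31.4% at 7d. Its value of 8.93% on 3d replicate 3 lay far below the other 3d levels. The circRNA of Tbc1d19 (mmu_circRNA_38624, rank 30) differed in this, since its lowest 3d level was on replicate 1. It had levels of 46.1%, 51.7% and 46.0% in sham, 13.2%, 24.0% and 23.0% at 3d and 52.9%, 34.6% and 36.6% at 7d.

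The remaining named circRNAs came from genes of membrane proteins. Slc9a2 codes for a sodium proton exchanger, and its circRNA (listed as both mmu_circRNA_19991 and mmu_circRNA_34924, with values of the same probe, rank 3) had levels of 47.6%, 37.7% and 19.8% in sham, 16.9%, 19.1% and 8.62% at 3d and 43.7%, 32.9% and 42.6% at 7d. The order of the groups rested on a narrow step, from 19.1% on 3d replicate 2 to 19.8% on sham replicate 3. Ptchd4 codes for a protein with a patched domain, and its circRNA (mmu_circRNA_30501, rank 8) had a mean level of 35.4% ± 12.1 in sham, 15.8% ± 5.43 at 3d and 42.9% ± 4.11 at 7d. Here too sham replicate 3, with 21.5%, was the closest to the 3d levels, the highest of which was 19.7%.

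The circRNAs without a name that completed the 10 highest scores were 5, and the first of them rested on a single array. ASCRP4009489 had the highest score, with levels of 61.9%, 62.8% and 51.1% in sham, 36.0%, 45.3% and 8.54% at 3d and 62.8%, 51.6% and 61.6% at 7d. Its log2 Sup intensity was -4.81 and -4.94 on the other 3d arrays and 0.31 on 3d replicate 3, where the scanner software marked the spot as an outlier. Without that array its log2 level change in 3d vs. sham was -0.53 in place of -1.28, and it was no longer among the 200 highest scores. ASCRP4003357 (rank 5) had a mean level of 43.0% ± 7.74 in sham, 20.0% ± 8.46 at 3d and 46.7% ± 2.92 at 7d. ASCRP4013552 (rank 9) had 50.7% ± 9.03, 23.0% ± 6.32 and 51.1% ± 3.31 in the same order. For these and for ASCRP4008835 (rank 6) and ASCRP4005961 (rank 10) the 3d levels lay below the others on every array, and all 4 were taken again when 3d replicate 3 was left out.

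**Figure D2:**
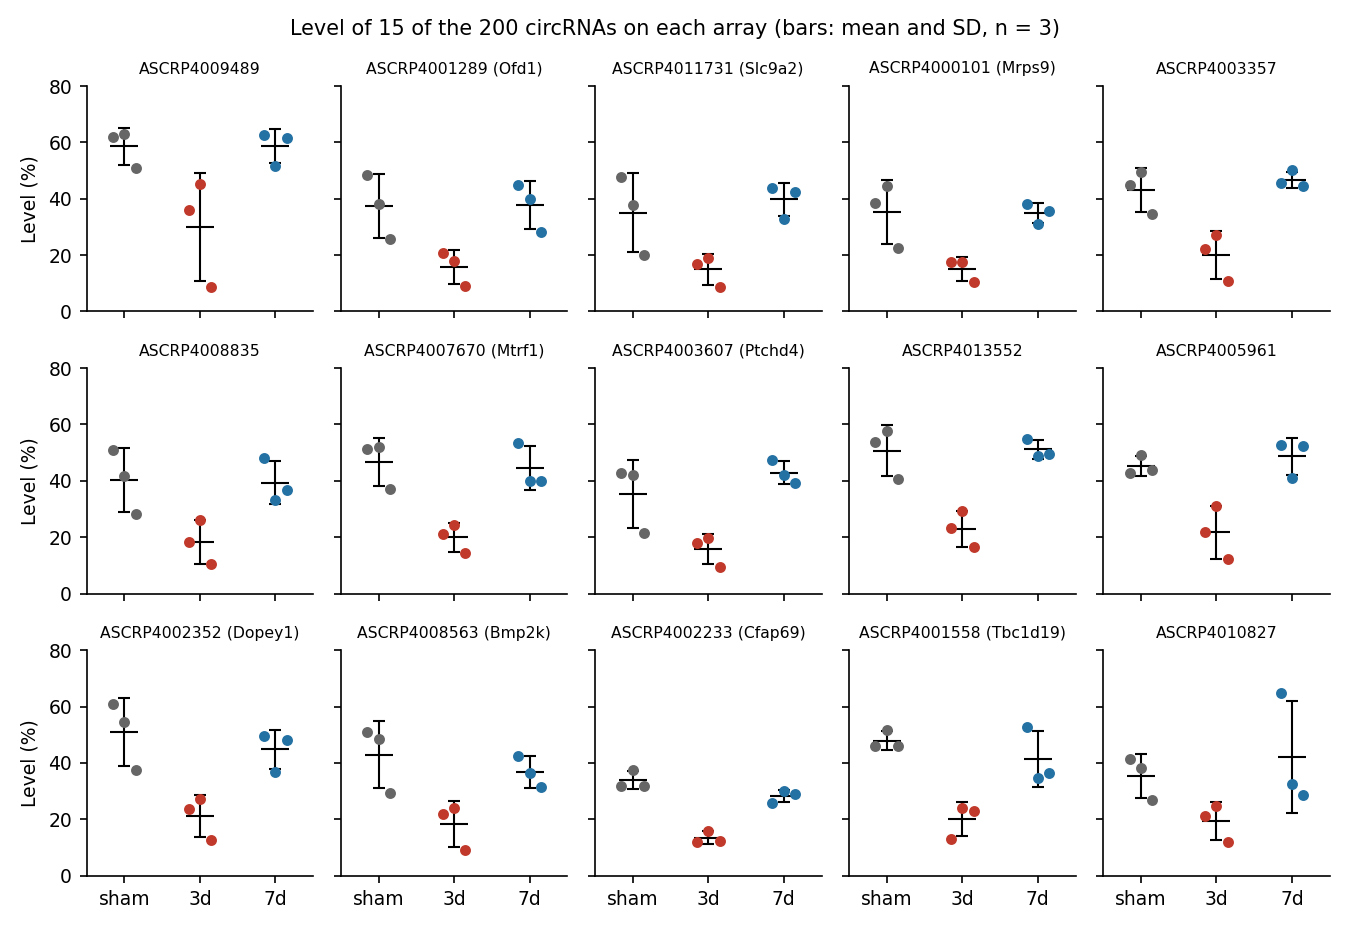
Levels of 15 of the 200 circRNAs on each array, as points by group, with the mean and SD (n = 3) as black bars: the 10 highest scores, the other 4 that could be named, and the brightest, ASCRP4010827. In each panel the red 3d points lie below all others, and for ASCRP4009489 the value of 8.54% on 3d replicate 3 stands apart from 36.0% and 45.3%.

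The 5 brightest of the 200 circRNAs, by the mean log2 sum of IP and Sup, were ASCRP4010827, ASCRP4008234, the circRNA of Bmp2k, ASCRP4004554 and ASCRP4008741. ASCRP4010827 had levels of 41.6%, 38.2% and 26.7% in sham, 21.1%, 24.9% and 11.9% at 3d and 64.8%, 32.5% and 28.6% at 7d. Its log2 Sup intensity was 1.63, 1.47 and 4.31 at 3d and -2.74, 0.93 and 1.04 at 7d, so that 3d replicate 3 and 7d replicate 1 stood apart. The Bmp2k circRNA showed the same on 1 side, with a log2 Sup intensity of 0.15 and 0.31 on the other 3d arrays and 3.39 on 3d replicate 3. Without 3d replicate 3 the log2 level change of ASCRP4010827 in 3d vs. sham was -0.60 in place of -0.92, and that of the Bmp2k circRNA -0.86 in place of -1.32.

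The level is computed from IP and Sup, and on the deposited scale Sup differed by more than IP between 3d and sham in most of the 200 circRNAs. The median log2 Sup intensity was 1.00 higher in the 3d group than in sham, against 0.44 over all 9305 probes, and all 200 had a higher mean. In 144 of them every 3d array was above every sham array (background 44.9%). The median log2 IP change was -0.43 on the deposited scale (0.01 with normexp), against -0.05 over all 9305 probes on the deposited scale. The IP changes of the 200 ran from -1.31 to 0.93, with 175 of 200 below 0. In 120 of the 200 every 3d array had a lower IP than every sham array (background 25.9%), and in 6 a higher one (6.79%). On the deposited scale Sup changed by more than IP in 169 circRNAs, and in 25 both channels were higher at 3d. The shares of all probes for these counts are not given here. With all spike-in probes the median changes of the 200 were 0.39 in Sup and -0.21 in IP, against -0.16 and 0.17 over all probes. These channels are those from which the level was computed, so the counts describe how the chosen differences came about.

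Between 3 and 7 days the median difference was larger in Sup than in IP. The median log2 Sup change from 3d to 7d was -1.39, against -0.57 over all probes, and in 195 of the 200 every 7d array was below every 3d array (background 57%). The median log2 IP change was 0.14 against 0.09 over all probes (-0.013 with all spike-in probes, -0.17 with loess, and 0.22 beside a Sup change of -0.43 with normexp), with every 7d array above every 3d array in 34 circRNAs (background 15.1%) and below in 19 (9.49%). The Mtrf1 circRNA showed both steps: its log2 Sup intensity was -4.23, -4.18 and -3.31 in sham, -3.06, -3.19 and -1.84 at 3d and -4.82, -4.33 and -4.33 at 7d. Its log2 IP intensity was -4.16, -4.07 and -4.07 in sham, -4.96, -4.82 and -4.41 at 3d and -4.62, -4.93 and -4.91 at 7d. Thus Sup was highest on the 3d arrays, with sham replicate 3 next to them, while IP was lower than in sham at both times.

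**Figure D3:**
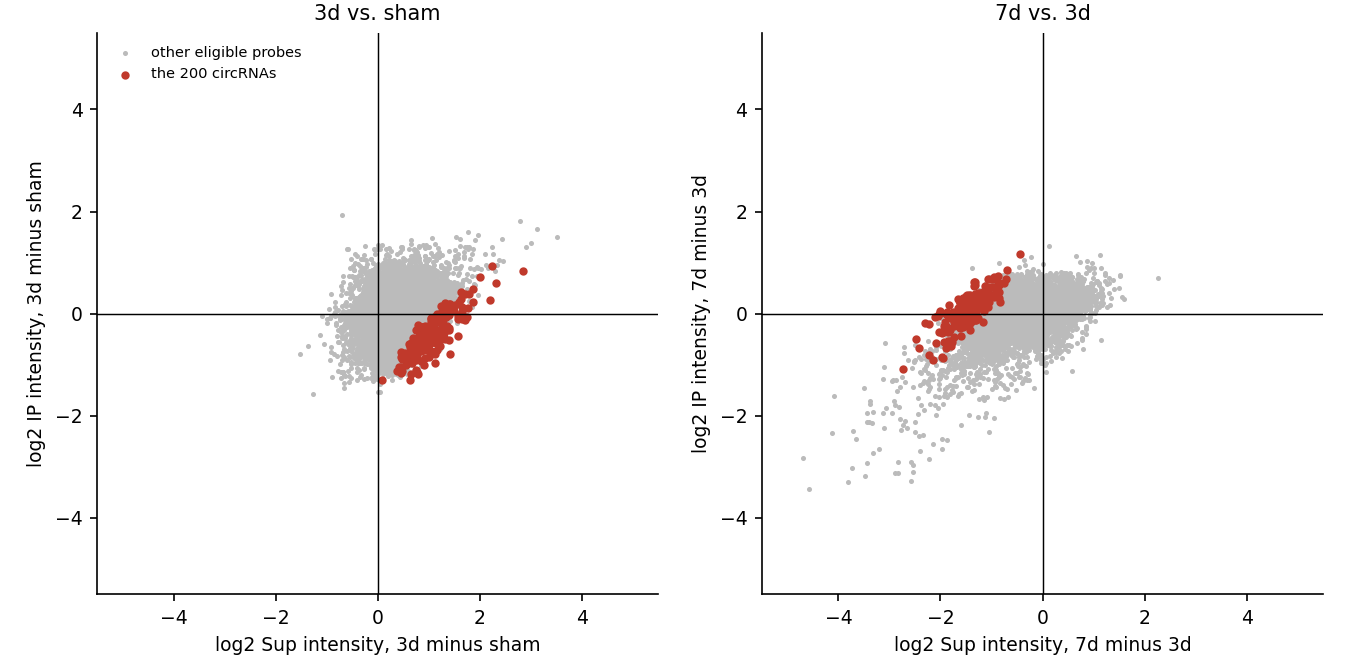
Change of the log2 IP intensity against the change of the log2 Sup intensity for 3d vs. sham (left) and 7d vs. 3d (right), each point a probe (group means over 3 arrays), with the 200 circRNAs in red and the other eligible probes in grey. The red points lie to the right of 0 in 3d vs. sham, with a median Sup change of 1.00 and a median IP change of -0.43 (0.01 with normexp), and to the left of 0 in 7d vs. 3d, with medians of -1.39 and 0.14 (IP -0.17 with loess).

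The direction of the median IP change in 3d vs. sham depended on the background correction. With normexp, a correction that models signal and background and adds an offset of 50, the median IP change of the 200 in 3d vs. sham was 0.01 in place of -0.43, and without any background correction it was 0.05. The median Sup change in 3d vs. sham stayed above 0 under each of the 5 alternatives of scaling, loess and background correction, from 0.39 to 0.74. Relative to the median of all probes the order was kept: IP was below that median in 157 to 169 of the 200 circRNAs and Sup above it in 180 to 197 under all 6 settings. The rule chose circRNAs whose share of IP fell most, and the settings used the same spots and arrays. A scaling that shifts a whole channel cannot change these counts. They follow largely from the rule and are read as no evidence.

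Expression, taken as the sum of IP and Sup, was higher in the 3d group for many of the 200. The median log2 change in 3d vs. sham was 0.52, against 0.25 over all probes. Without 3d replicate 3 it was 0.27 against 0.24, so most of this difference from all probes rested on that array. Without sham replicate 3 it was 0.65 against 0.28. With all spike-in probes it was 0.13 against -0.06, and with centred medians 0.23 against -0.02. With normexp it was 0.30 against 0.17, and without background correction 0.38 against 0.22. On the deposited scale 72 of 200 (36%) were called higher and 0 lower with limma. Of all 9305 probes 15.8% were called higher and 0.903% lower. In 7d vs. 3d 146 were called lower (73%, background 23.5%), and 121 after adjustment (20.9%). Both channels enter the rule, so these counts are a description. After Benjamini-Hochberg adjustment over all probes 32 were left in 3d vs. sham (background 9.76%), and 0 lower (0.494%). The 72 fell to 38 without 3d replicate 3, to 40 without sham replicate 1, and to between 20 and 28 under the other scalings. The shares of all probes called under these settings are not given here, so these counts are not read against a background.

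At 7 days the levels of the 200 circRNAs were back among those of sham mice. The median log2 level change in 7d vs. sham was 0.03, with 127 circRNAs above 0 and 73 below, and 174 of the 200 lay within 0.2 of their sham mean. The split depended on the setting, with 71 above 0 with centred medians, 75 with loess, 101 with all spike-in probes, 186 with normexp (median 0.14) and 179 without background correction (median 0.17). The median of all probes moved alike: -0.03, -0.02, 0.01, 0.15 and 0.16 in the same order. With limma 0 of 200 were called in either direction, where 0.656% of all probes were called higher and 0.548% lower. A single circRNA of the 200 had an unadjusted P below 0.05, the smallest adjusted P was 0.891, and the methods' t-test also called 0. The rule takes circRNAs that are high in both groups, so a small difference between them is partly its doing, and a P that misses the threshold does not show that the levels were equal. In 198 circRNAs the 7d and sham levels overlapped, and in 2 every 7d level was below every sham level (background 5.1%), while in 0 every 7d level was above (7.26%).

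The range of this return was wide enough to name its ends. The largest positive differences between 7d and sham were those of ASCRP4013639, ASCRP4000990, ASCRP4003157, ASCRP4014160 and ASCRP4005048, with log2 changes from 0.35 to 0.49. ASCRP4013639 had levels of 24.7%, 29.5% and 16.9% in sham, 12.7%, 12.5% and 12.0% at 3d and 31.4%, 27.7% and 39.1% at 7d, so its 3d arrays were close together while the others varied. The largest negative ones were those of ASCRP4005299, the Cfap69 circRNA, ASCRP4004849, ASCRP4001394 and the Tbc1d19 circRNA, with log2 changes from -0.29 to -0.24. ASCRP4005299 had levels of 54.2%, 56.0% and 57.2% in sham, 32.3%, 34.8% and 14.6% at 3d and 54.3%, 40.1% and 43.7% at 7d.

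On the deposited scale both channels were lower at 7d than in sham, which did not hold with normexp. The median log2 change in 7d vs. sham was -0.30 for IP and -0.39 for Sup, against -0.02 and -0.07 over all probes. In 104 of the 200 circRNAs every 7d array had a lower IP than every sham array (background 22.9%), and in 67 a lower Sup (background 23.5%). As expression, 33 of 200 (16.5%) were called lower in 7d vs. sham with limma and 0 higher, where 8.87% of all probes were called lower and 4.16% higher. After Benjamini-Hochberg adjustment 3 were left (1.5%, background 2.26%), ASCRP4012885, ASCRP4006574 and ASCRP4012828, which are named here because of their values. ASCRP4012885 had a log2 sum of -2.74, -2.76 and -2.65 in sham and -3.37, -3.45 and -3.35 in the 7d group, a change of -0.67 ± 0.13 (SE, limma adjusted P = 0.0383). With normexp 1 of the 200 was called lower and the median changes in 7d vs. sham were 0.25 for IP and -0.00093 for Sup, and without background correction that of IP was 0.056. Without sham replicate 3 the count of those called lower was 14. The shares of all probes called with normexp and without this array are not given here.

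A single 3d array and a single sham array set much of the order within groups. The lowest 3d level was on replicate 3 in 171 of the 200 circRNAs (85.5%), and in 77.3% of the 3413 others that dipped. The lowest sham level was on replicate 3 in 189. The median foreground Sup intensity of the 200 was 154 on 3d replicate 3, against 77 and 88.3 on the other 3d arrays, 54 to 93 in sham and 57.5 to 63.5 at 7d. Over all 9305 probes it was 119, 87.5 and 103 on the 3d arrays. The log2 Sup intensity on 3d replicate 3 was above the mean of the other 3d arrays by 0.82 in the median of the 200 and by 0.25 over all probes, and by 1 or more in 76 of the 200. On the IP side the same difference was 0.29 for the 200 and -0.09 over all probes.

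Marked spots lay on the same array. Of the 200 circRNAs 15 (7.5%) had a spot that the scanner software marked as an outlier on some array, against 1.1% of the 9305 probes, and 14 of their 16 marked spots were on 3d replicate 3. Without these 15 the median log2 level change was -0.94 in 3d vs. sham, as with them. Without 3d replicate 3 the median change in 3d vs. sham was -0.78 for the 200 and -0.25 for all probes, and without sham replicate 3 it was -1.07 and -0.42. When the rule was applied anew without 3d replicate 3, 118 of the 200 were taken again, without sham replicate 3 112 were, and 67 were taken both times. The part of these arrays in the dip was not tested beyond leaving them out.

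**Figure D4:**
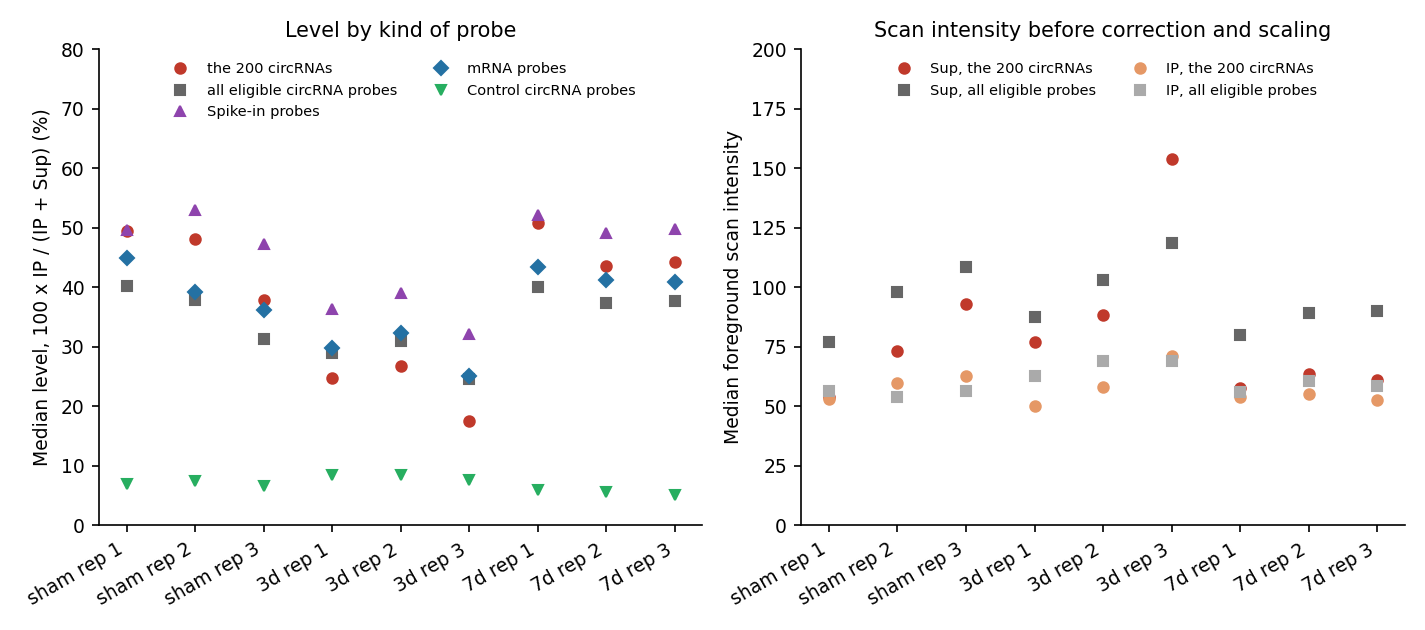
Left, median level on each array of the 200 circRNAs, of all 9305 eligible circRNA probes, of 77 spike-in probes, of 33 mRNA probes and of 14 control circRNA probes; right, median foreground scan intensity of Sup and IP, before background correction and scaling, for the 200 and for all eligible probes. The first 4 of these have their lowest levels on the 3d arrays and the control circRNA probes their highest, from 7.61% to 8.37%, and the Sup intensity of the 200 on 3d replicate 3, 154, is the highest point on the right.

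How many of the 200 circRNAs dipped and how far they lay from the median of all probes both depended on the scaling or background correction. With each channel scaled on all spike-in probes, 92 kept the order of the rule (background 4.19%). With channel medians centred 177 kept it (background 16.4%), with within-array loess 170 (13.9%), with normexp 160 (26.6%) and without background correction 134 (22.2%). No circRNA of the 200 took the opposite order under any of these 5 alternatives, where 28.2%, 12.3%, 13%, 1.02% and 7.54% of all probes did. The alternatives used the same spots and arrays from which the largest dips were chosen. These differences from all probes thus follow largely from the rule and are read as no evidence. With normexp and without background correction 15 of the 200 had a missing value and count as not keeping it. The median log2 level change in 3d vs. sham was -0.35 with all spike-in probes, where all 9305 probes had 0.17. It was -0.62 with centred medians, -0.59 with loess, -0.30 with normexp and -0.34 without background correction. Relative to the median of all probes the 200 stood at -0.60 on the deposited scale, at -0.52, -0.58 and -0.57 with all spike-in probes, centred medians and loess, and at -0.25 and -0.36 with normexp and without background correction. The mean level in 3d was below that in sham in all 200 under each of these settings except without background correction, where it was in 198.

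**Figure D5:**
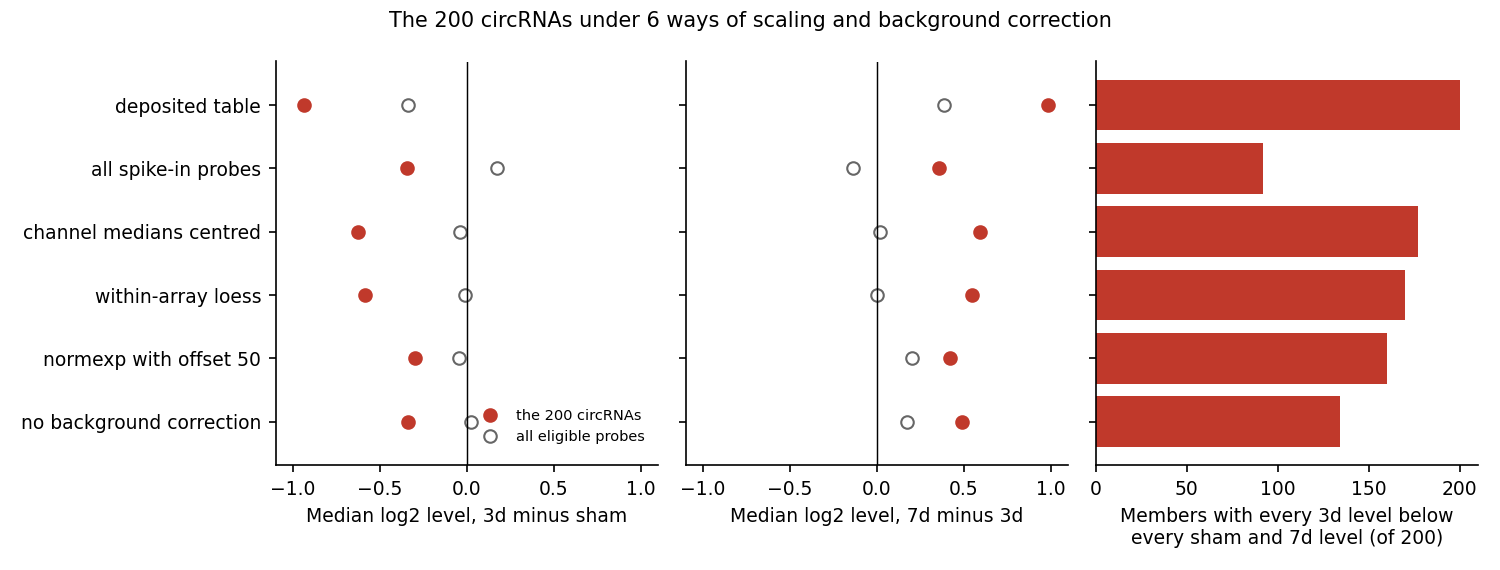
Median log2 level change in 3d vs. sham (left) and 7d vs. 3d (middle) for the 200 circRNAs (filled) and all 9305 eligible probes (open) under 6 settings of scaling and background correction, and the number of the 200 that keep every 3d level below every sham and 7d level (right). The filled points lie on the side of the dip in each row, from -0.94 to -0.30 in 3d vs. sham, and the bars range from 92 to 200.

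The order held in all 6 settings for 87 of the 200 circRNAs (background 3.78%), and for 11 it held on the deposited scale alone. The choice of the largest dips favors such a share, so it is a description. Of the named circRNAs, those of Mtrf1, Dopey1 and Cfap69 were among the 87. Those of Mrps9, Ptchd4 and Bmp2k kept the order under 4 of the 5 alternatives, those of Ofd1 and Slc9a2 under 3, and that of Tbc1d19 under 2. In the 38 circRNAs that kept it in all settings and were also taken again without 3d replicate 3 and without sham replicate 3, the highest scores were those of ASCRP4003357, the Mtrf1 circRNA and ASCRP4013552. The Mtrf1 circRNA had a log2 level change in 3d vs. sham of -1.25 on the deposited scale, -1.03 without 3d replicate 3, -0.61 with all spike-in probes and -0.42 with normexp.

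The 200 circRNAs were dimmer in the median than all probes and few lay in the brightest quartile, in a measure made from the same channels as the level. Their mean log2 sum of IP and Sup had a median of -2.98 against -2.58 over the 9305 probes and -2.63 over the others that dipped, and it ranged from -4.75 to 1.89. From the dimmest to the brightest quartile of the probes, 60, 67, 54 and 19 of the 200 were found. The order of the rule was seen in 40.6%, 39.7%, 41.4% and 33.6% of all probes in these quartiles. The position on the array did not enter the rule, and 58% of the 200 lay in the right-hand columns against 50.7% of the 9305, with a median column of 48 against 42 of 82 columns and a median row of 92.5 against 96 of 192 rows. The sham level of the 200, 45.6% in the median, was above the 36.7% of all probes and close to the 46.0% of the other circRNAs that dipped.

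Among the named probes outside the 200, 7 had 3d means below sham and 7d and missed the order through single arrays. The circRNA of Srebf2, host of a transcription factor of cholesterol synthesis, had levels of 45.2%, 39.0% and 8.03% in sham, 8.79%, 9.14% and 6.56% at 3d and 35.4%, 25.5% and 38.1% at 7d. Its score of 1.58 would have been above all of the 200, and sham replicate 3 broke the order. The same array did so for the circRNAs of Scn2a1, a sodium channel subunit, Glra2, a glycine receptor subunit, Kat6a, a histone acetyltransferase, Uba6, a ubiquitin activating enzyme, and Fam135a, with scores from 0.65 to 0.95. That of Mid1, a microtubule-bound ubiquitin ligase, missed it through 7d replicate 2, with a level of 14.5% against 16.6% on the highest 3d array.

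Lists of host genes could be read only through the named probes. Of the endocytosis and phosphoinositide list 2 probes were among the 9305, those of Bmp2k and Tbc1d19, and both belong to the 200. Of the synapse list 4 were, those of Anks1b, Rims1, Glra2 and Scn2a1, and 0 belong to the 200. In 3d vs. sham 2 of these 4 were called higher and 1 lower with limma. Of the chromatin list 3 were (Srebf2, Kat6a and Maml2) and of the ubiquitin list 1, with 0 among the 200. The named probes were chosen by the study for their changes, so these counts say nothing of the lists as a whole. Of 16 cell type markers, 1 had an mRNA probe on the array, and it was not well above background on all arrays, so the labeled tissue could not be checked.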

How the data were processed

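The scanner intensity of each spot was deposited by the authors as read with Agilent Feature Extraction 11.0.1.1, with foreground, local background, processed signal and marks for both channels. From the processed signal the authors made the deposited log2 table by subtracting a constant per channel and array. This was checked on the files: with the mean of 10 of 102 spike-in probes as the constant the largest difference was 2.1e-11. The table lists 12251 of 14236 circRNA probes. No circRNA spot was saturated, and the number of arrays limits the precision.

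Levels and sums were computed from these values on 9305 probes and all 9 arrays were fitted with limma 3.58.1 in R 4.3.3 (lmFit, eBayes). Calls were made at P below 0.05, unadjusted, with a fold above 1.5. Members and lists were chosen with earlier results of these data known. Described by name were the 10 highest scores, the 3 lowest and the 3 next below, the 5 brightest, the 5 largest and 5 smallest 7d minus sham differences, and members named by the study. The study's fold changes and P values served only to match names, within a relative tolerance of 1e-04. The levels were also computed under other scalings, background corrections and filters and without each array, and the fit was tested on simulated data. Replicate numbers were taken from titles, though 3 samples carry other numbers in their descriptions. Deviations of the level from group means of samples with the same number correlated at 0.37, 0.11 and 0.37 between 3d and sham. In the other comparisons they correlated at -0.15 to 0.06. For expression the values were 0.46, 0.14 and 0.43 between 3d and sham and -0.51 to -0.03 in the other comparisons. These values do not establish a pairing of samples. The result of 1 list of host genes is not reported here.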

Additional observations from a re-analysis of the deposited data

How the results depend on the processing

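Under other scalings the number of probes that dipped was 390 with all spike-in probes, 1529 with centred medians, 1292 with loess and 2070 without background correction, in place of 3613, and 92 of the 200 kept the order with all spike-in probes. Chosen anew, 92 of the 200 were shared with all spike-in probes, 31 with normexp and 37 without background correction, and 112 to 188 when 1 array was left out. The probes that dipped were then 3646 to 4925, and the 200 keep the order by construction with an array left out (200) or a looser filter.

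The median log2 level change in 3d vs. sham was -0.35 with all spike-in probes, -0.62 with centred medians, -0.59 with loess, -0.30 with normexp and -0.34 without background correction (-1.07 to -0.78 without 1 array). In 7d vs. 3d it was 0.36, 0.59, 0.55, 0.42 and 0.49 in the same order (0.82 to 1.11 without 1 array), and in 7d vs. sham it ranged from -0.08 to 0.10 without 1 array. The median IP change in 3d vs. sham was -0.21 with all spike-in probes, -0.19 with loess, 0.015 with normexp and 0.053 without background correction (-0.54 to -0.31 without 1 array). In 7d vs. 3d it was -0.013 with all spike-in probes and -0.17 with loess (0.04 to 0.23), and in 7d vs. sham 0.25 with normexp and 0.056 without background correction (-0.35 to -0.24). For Sup the median change in 3d vs. sham was 0.39 with all spike-in probes and 0.44 with normexp (0.70 to 1.23). In 7d vs. 3d it was -0.68 with all spike-in probes, -0.85 with centred medians, -0.43 with normexp and -0.72 without background correction (-1.57 to -1.08), and in 7d vs. sham -0.00093 with normexp (-0.54 to -0.18). The array medians in 3d vs. sham differed by 4.43 percentage points with all spike-in probes, -1.05 with loess, -1.44 with normexp and 0.23 without background correction (-10.9 to -6.48), in 7d vs. 3d by -3.21, 1.17, 5.71 and 4.36 (8.41 to 11.6), and in 7d vs. sham by -0.70 to 3.75. Centring sets them nearly equal and gives no value.

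The rule fixed the direction and size of the level differences in 3d vs. sham and 7d vs. 3d, so calls in them are no evidence. Of the 200, those called lower in level in 3d vs. sham numbered 8 with all spike-in probes, 126 with centred medians, 100 with loess, 19 with normexp and 32 without background correction (181 to 200 without 1 array). In 7d vs. 3d 15, 98, 80, 57 and 67 were called higher (179 to 200). Over all 9305 probes 25 were called higher in 7d vs. 3d with all spike-in probes and 190 with centred medians. The shares of all probes called in level with loess, with normexp, without background correction or without 1 array are not given here. In 7d vs. sham 0 to 2 were called higher without 1 array and 0 lower. As expression, 21 with all spike-in probes, 26 with centred medians, 28 with quantiles, 20 with normexp and 32 after Benjamini-Hochberg adjustment were called higher in 3d vs. sham (38 to 103), and 1, 1 and 3 lower with the first 3 of these (0 to 1). In 7d vs. 3d 52, 74, 81 and 40 were called lower (102 to 173) and 1 higher with all spike-in probes (0 without 1 array). In 7d vs. sham 1 was called lower with normexp and 3 after adjustment (14 to 47), and 0 to 2 higher without 1 array. The shares of all probes called as expression under the other scalings or without 1 array are not given here. These counts are therefore not read against a background. With the replicate block 200 were called in level in both comparisons and 77 higher as expression in 3d vs. sham, and it moved no count of the 200 by over 1.5 times. Over all 9305 probes 132 were called higher and 1623 lower in level in 3d vs. sham, 1463 and 8 with all spike-in probes, and 704 and 181 with centred medians. The cause of these differences was not tested. Signal over background was low: the median ratio of foreground to background of the 200 was 2.40 to 3.78 in IP and 3.41 to 8.39 in Sup.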
